A study of Mus musculus with 8 samples.

Results

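Damage sensing and checkpoint kinase genes were described as a set of 10 genes (Atm, Atr, Chek1, Chek2, Trp53bp1, Mdc1, H2afx, Topbp1, Rnf8 and Rnf168). They were taken by name and were read by 13 of the 39429 non-control probes of an Agilent whole-genome mouse array. Of the 10 genes, 8 passed the filter on dim signal and were tested among 19528 genes in all. Atm and Topbp1 did not pass it.

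The data were 8 single-colour arrays of the lower crypt of the jejunum, cut from fixed sections by laser capture. The fasted group was 4 arrays of Lgr5EGFP-IRES-CreERT2/+ mice kept without food for 24 h, given 80 mg/kg etoposide into the tail vein and sampled 3 h later. The fed group was 4 arrays of mice of the same genotype that had kept their food before the same injection and sampling. All were 4 to 6 weeks old and carried the reporter allele in the Lgr5 locus, and all had moistened food after the injection. By the labels 2 arrays of each group were male and 2 female. The labels name no animal beyond a replicate number, so p-values measure the spread between these arrays. Every mouse had etoposide, and what the drug itself did cannot be read from this comparison. Fasting and the refeeding that followed it cannot be told apart. The capture holds a mix of cells, in which fewer cells of a type and less RNA per cell cannot be told apart either.

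Etoposide traps topoisomerase II on DNA and leaves double-strand breaks. ATM is the kinase activated at such breaks, and ATR the kinase activated by single-stranded DNA at stalled forks and resected ends. They phosphorylate the histone variant H2A.X beside the lesion, MDC1 binds the mark, and RNF8 and RNF168 then ubiquitinate chromatin so that 53BP1 can dock. CHK2 and CHK1, the effector kinases, carry the signal to the cell cycle. Much of this control acts through phosphorylation of proteins, which an array of transcripts does not read.

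Each array had 53.2% to 65.6% of its probes above background by the scanner's own flag, with a mean of 61.0% ± 5.33 for fasted and 58.4% ± 4.78 for fed arrays (SD, n = 4 each). Precision is limited by there being 4 arrays a group. Lyz1, a Paneth cell gene, and Olfm4, a crypt base stem cell gene, were well above background on all 8 arrays, whereas Lgr5 was so on 0. Fasted replicate 3 was the array least like the rest (Pearson correlations of 0.827 to 0.925 over genes) and the only one of a later scan day. Fed replicate 4, labelled female, held Xist at a log2 signal of 4.69, not well above background, against 13.09 to 13.69 on the other arrays labelled female, and the Y-linked Eif2s3y was at 9.31 there, against 5.05 to 5.29 on those arrays. Its transcripts go against its sex label. There were 3 slides that carried an array of both feeding states: fasted replicate 1 with fed replicate 1, fasted replicate 2 with fed replicate 3, and fasted replicate 4 with fed replicate 4. On each of these slides the fasted array had the larger share of probes above background, at 60.9% against 53.2% fed, 65.6% against 62.2% fed and 63.9% against 62.8% fed. With that share as a term in place of sex, a fit added after the data were seen, H2afx differed by 0.61, Trp53bp1 by 0.79 and Chek1 by -2.12 on the log2 scale, and 0 genes passed.

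No damage sensing or checkpoint kinase gene passed the test between feeding states. The 2 of 8 tested genes with an unadjusted p under 0.05 were Trp53bp1 and H2afx, both with higher means in fasted crypts. Such a p was found for 5.95% of all genes, and for 3.93% with the higher mean in fasted crypts. The fit had labelled sex as a term, and the transcripts of fed replicate 4 go against its label. Without that term 1 of the 8 had such a p, where 6.73% of all genes did. H2afx was the 1 gene of the 8 whose fasted and fed arrays did not overlap, where 2.96% of all genes had every fasted array above every fed array and 4.93% were without overlap in either direction. Chek1 had the widest difference, on the fed side, and it lay on 2 fasted arrays. After Benjamini-Hochberg adjustment at 0.05, limma's test over all genes called 0 of the 8 and 0 of 19528 genes (0%), while 1161 genes had an unadjusted p under 0.05.

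**Figure D1:**
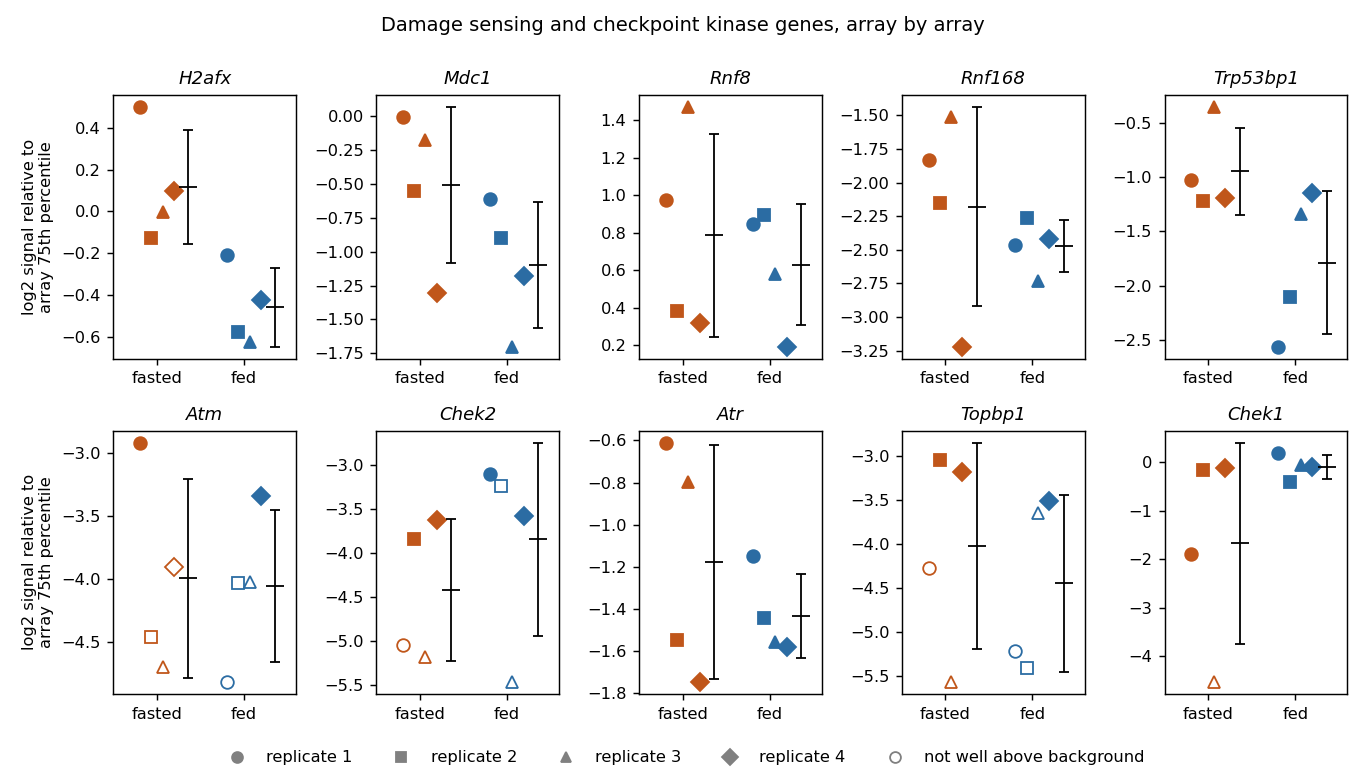
Log2 signal relative to each array's 75th percentile, on a separate y axis for each gene, for 4 fasted (left, orange) and 4 fed (right, blue) arrays, with the shape giving the replicate, open symbols for spots not well above background, and bars for mean ± SD. H2afx is the gene of the 8 tested in which all fasted points lie above all fed points, and Chek1 is low on fasted replicates 1 and 3 alone.

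The mark and its reader come first. H2afx encodes H2A.X, the histone whose phosphorylated tail marks chromatin around a break. Its probe lies at chr9:44144033-44144092 on the plus strand of mm9, the build named in the file headers. The first 30 of its 60 bases are shown, since this probe gave the most even difference of the set:
H2afx probe: ctgtctggactgagcctctggcttctgaac
The log2 signal, given throughout relative to the array's 75th percentile, was 0.50, -0.13, -0.0012 and 0.10 on fasted arrays (replicates 1 to 4), against -0.21, -0.58, -0.62 and -0.43 on fed arrays. Every fasted array lay above every fed array, though the lowest fasted and the highest fed value were close. Fasted crypts averaged 0.12 ± 0.27, against -0.46 ± 0.19 for fed crypts (SD, n = 4 each), a 1.49-fold difference (log2 difference 0.58, SE 0.23, 95% interval 0.05 to 1.11). It did not pass (limma adjusted p = 0.788, unadjusted p = 0.0367). On the 3 shared slides the fasted array was higher by 0.71, 0.50 and 0.52, so H2afx was the 1 gene of the 8 tested that was higher on all 3, where 17.9% of all genes were. Without fasted replicate 3 the log2 difference was 0.60, and without that array and fed replicate 4 it was 0.63.

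Mdc1, the scaffold that binds phosphorylated H2A.X and holds ATM near the break, had log2 signals of -0.0078, -0.55, -0.17 and -1.30 on fasted arrays, against -0.61, -0.90, -1.70 and -1.18 on fed arrays. Fasted replicates 1, 2 and 3 lay above all 4 fed arrays, and fasted replicate 4 lay below 3 of them. The log2 difference was 0.59 (SE 0.32, 95% interval -0.15 to 1.32) with a mean of -0.51 ± 0.58 for fasted and -1.10 ± 0.46 for fed arrays (SD, n = 4 each), and it did not pass (limma adjusted p = 0.788). Without fasted replicate 3 it was 0.34. The shared slides gave 0.60, 1.15 and -0.12.

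Rnf8 and Rnf168 encode the ubiquitin ligases that act after MDC1. Rnf8, recruited by phosphorylated MDC1, was at 0.97, 0.38, 1.47 and 0.32 on fasted arrays and at 0.85, 0.90, 0.58 and 0.19 on fed arrays. Rnf168, whose product ubiquitinates histone H2A, was at -1.83, -2.15, -1.52 and -3.22 on fasted arrays and at -2.46, -2.27, -2.74 and -2.42 on fed arrays. The groups overlapped for both genes. For Rnf168 the fasted arrays held the 3 highest values and the lowest one, with an SD of 0.74 among fasted and 0.20 among fed arrays (n = 4 each). The log2 differences were 0.16 (SE 0.32, 95% interval -0.57 to 0.88) for Rnf8 and 0.29 (SE 0.41, 95% interval -0.66 to 1.24) for Rnf168, with limma adjusted p of 0.902 and 0.862. Both turned without fasted replicate 3, to -0.14 for Rnf8 and -0.033 for Rnf168. Without fasted replicate 4 they were 0.32 and 0.65, and Rnf8 was 0.35 without fasted replicate 2, 0.24 without fed replicate 2 and 0.011 without fed replicate 4. The Rnf168 difference on the shared slides was 0.63, 0.58 and -0.80, and that of Rnf8 was 0.13, -0.20 and 0.13.

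Trp53bp1 encodes 53BP1, which docks on the ubiquitinated nucleosome, shields broken ends from resection and favours end joining. A pair of probes read it, at chr2:121022706-121022765 and chr2:121024792-121024851 on the minus strand of mm9. They are shown because both gave a fasted mean above the fed mean, the first by its first 30 bases and the second whole:
Trp53bp1 probe A_66_P139355: tactgtggttatcttccataggaatatagt
Trp53bp1 probe A_52_P464437: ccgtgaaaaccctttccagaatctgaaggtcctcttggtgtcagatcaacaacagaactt
The brighter probe, A_66_P139355, stood for the gene and had log2 signals of -1.02, -1.22, -0.35 and -1.19 on fasted arrays, against -2.56, -2.10, -1.34 and -1.15 on fed arrays. Fed replicates 1, 2 and 3 lay below every fasted array, the third by little, and fed replicate 4 lay inside the fasted range. Fasted crypts averaged -0.94 ± 0.40, against -1.79 ± 0.66 for fed crypts (SD, n = 4 each), a 1.79-fold difference (log2 difference 0.84, SE 0.31, 95% interval 0.13 to 1.56). It had the smallest unadjusted p of the 8 (0.0262) and did not pass (limma adjusted p = 0.788). The shared slides gave 1.54, 0.12 and -0.04, so among them the slide of fasted and fed replicates 1, which also had the widest gap in probes above background, held nearly all of the difference.

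The dimmer Trp53bp1 probe, A_52_P464437, was at -2.998, -2.86, -3.72 and -2.81 on fasted arrays, against -5.58, -4.17, -3.59 and -5.29 on fed arrays. It passed the scanner's background flag on fasted replicates 1, 2 and 4 and on fed replicate 3, and fed replicate 3 lay above fasted replicate 3. It thus reached the filter of 4 arrays with only 1 fed array. On fed replicates 1, 2 and 4 it lay below the lowest signal flagged well above background there (-3.45, -3.65 and -3.97). Its log2 difference of 1.56 (SE 0.61, 95% interval 0.18 to 2.95) therefore rests on background-level values, and no support is taken from it. In the fit with each of 24459 probes as a feature of its own it did not pass (limma adjusted p = 0.765, unadjusted p = 0.0314). In that fit 6.38% of probes had an unadjusted p under 0.05. On the slide of fasted and fed replicates 4 this probe differed by 2.48, its fed value not being well above background. The brighter probe differed by -0.04, so the probes disagreed there. The probes share arrays and a transcript and are not independent readings. By array pattern, after each gene's own mean was taken off, the genes nearest to Trp53bp1 among 19347 others were Slc6a7, Mrpl35 and Pfkfb4, with mean absolute log2 differences of 0.141, 0.160 and 0.165 over the 8 arrays.

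**Figure D2:**
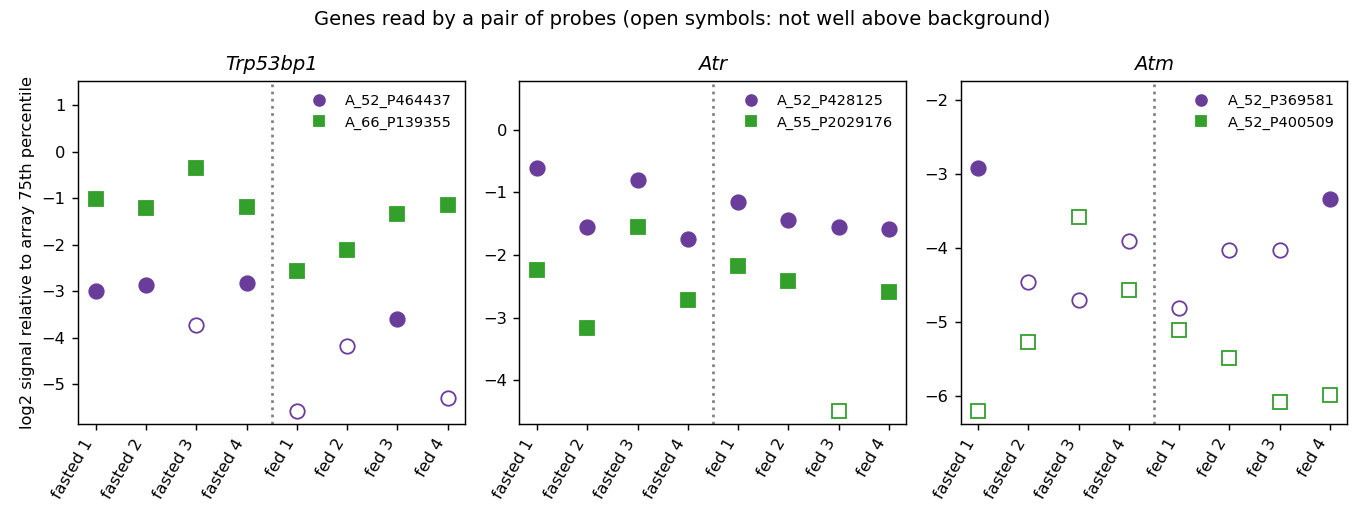
Log2 signal relative to the array's 75th percentile of both probes of Trp53bp1, Atr and Atm on each array, fasted arrays left of the dotted line and fed arrays right of it, with open symbols where a probe was not well above background. Both Trp53bp1 probes are low on fed replicates 1 and 2, and Atm is well above background on 2 arrays by 1 probe and on 0 by the other.

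Atm, the kinase that responds first to double-strand breaks, was near the limit of detection. The array carries the probe below at 10 spots, which gives a technical spread, and it lies at chr9:53256167-53256226 on the minus strand of mm9:
Atm probe A_52_P369581: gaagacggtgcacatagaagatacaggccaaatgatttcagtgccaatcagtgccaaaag
Its log2 signal was -2.92, -4.46, -4.70 and -3.91 on fasted arrays, against -4.82, -4.03, -4.03 and -3.34 on fed arrays. Only fasted replicate 1 and fed replicate 4 were well above background, with 10 of 10 and 9 of 10 spots so flagged. The SD among single spots of 1 array ran from 0.21 to 0.76. Each array's value is the mean of 9 or 10 spots, so that SD is wider than the technical error of the value. Among array values the SD was 0.79 for fasted and 0.60 for fed arrays (n = 4 each), which is not a like measure. In a fit with no filter on dim signal the log2 difference was 0.06 (SE 0.55, 95% interval -1.18 to 1.29). The other Atm probe, A_52_P400509, passed the background flag on 0 arrays, and no fold is given for it.

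Chek2, the effector kinase activated by ATM, was as dim. Its probe lies at chr5:111294547-111294606 on the plus strand of mm9 and is shown because the gene passed the filter at its minimum of 4 arrays, 2 fasted and 2 fed:
Chek2 probe A_51_P137111: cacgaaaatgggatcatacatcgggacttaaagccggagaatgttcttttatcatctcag
The log2 signal was -5.05, -3.84, -5.18 and -3.63 on fasted arrays, against -3.10, -3.24, -5.46 and -3.58 on fed arrays. Fasted replicates 1 and 3 and fed replicate 3 lay more than a log2 unit below the other 5 arrays, none of the 3 being well above background, nor was fed replicate 2. The log2 difference was -0.58 (SE 0.70, 95% interval -2.19 to 1.03) and did not pass (limma adjusted p = 0.838). It was -0.20 without fasted replicate 1 and -0.34 without fed replicate 4, and -1.09 without fed replicate 3 and -1.03 without fasted replicate 4. The shared slides gave -1.94, 1.63 and -0.05, so Chek2 had no shared direction on them.

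Atr, the kinase of replication stress, was well above background on all 8 arrays with the probe at chr9:95851956-95852015, plus strand of mm9, shown as the better lit of its pair:
Atr probe A_52_P428125: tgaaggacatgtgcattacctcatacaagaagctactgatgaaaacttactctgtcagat
The log2 signal was -0.61, -1.55, -0.80 and -1.75 on fasted arrays, against -1.15, -1.44, -1.56 and -1.58 on fed arrays. Fasted replicates 1 and 3 were the highest of the 8 arrays and fasted replicate 4 the lowest, so the spread was wider among fasted (SD 0.55) than among fed arrays (SD 0.20, n = 4 each), a difference in spread that was not tested. The log2 difference was 0.26 (SE 0.33, 95% interval -0.49 to 1.00) and did not pass (limma adjusted p = 0.842). It was 0.08 without fasted replicate 1 and 0.06 without fasted replicate 3, and 0.45 without fasted replicate 2 and 0.44 without fasted replicate 4. The other Atr probe, A_55_P2029176, designed on a cDNA clone rather than a RefSeq transcript, differed by 0.50 (SE 0.60, 95% interval -0.87 to 1.87).

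Topbp1, which binds the 9-1-1 clamp and activates ATR, passed the background flag on fasted replicates 2 and 4 and on fed replicate 4. Its log2 signal was -4.28, -3.05, -5.57 and -3.19 on fasted arrays, against -5.23, -5.41, -3.65 and -3.52 on fed arrays. The highest values were those of fasted replicates 2 and 4, and the lowest were those of fasted replicate 3 and fed replicates 1 and 2, so the fed values all lay inside the fasted range. In the fit with no filter on dim signal the log2 difference was 0.43 (SE 0.70, 95% interval -1.14 to 1.99).

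Chek1, the effector kinase of ATR that restrains entry into mitosis, differed most in size. Its probe lies at chr9:36516068-36516127 on the minus strand of mm9, and the first 30 of its 60 bases are shown because 2 arrays set the difference:
Chek1 probe A_55_P2000187: ttcctgactctgtctcccaaatactgtgat
The log2 signal was -1.89, -0.16, -4.53 and -0.13 on fasted arrays, against 0.18, -0.41, -0.07 and -0.11 on fed arrays. Fasted replicates 2 and 4 lay inside the fed range, fasted replicate 1 lay below it, and fasted replicate 3 was not well above background. Fasted crypts averaged -1.68 ± 2.07, against -0.10 ± 0.24 for fed crypts (SD, n = 4 each), a log2 difference of -1.58 (SE 0.89, 95% interval -3.61 to 0.46) that did not pass (limma adjusted p = 0.788, unadjusted p = 0.112). It was -0.56 without fasted replicate 3. The shared slides gave -2.07, -0.09 and -0.02, so on 2 of the 3 slides both arrays held Chek1 at nearly the same signal. The array carries this probe at 1 spot, so no second reading of it exists on fasted replicates 1 and 3.

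**Figure D3:**
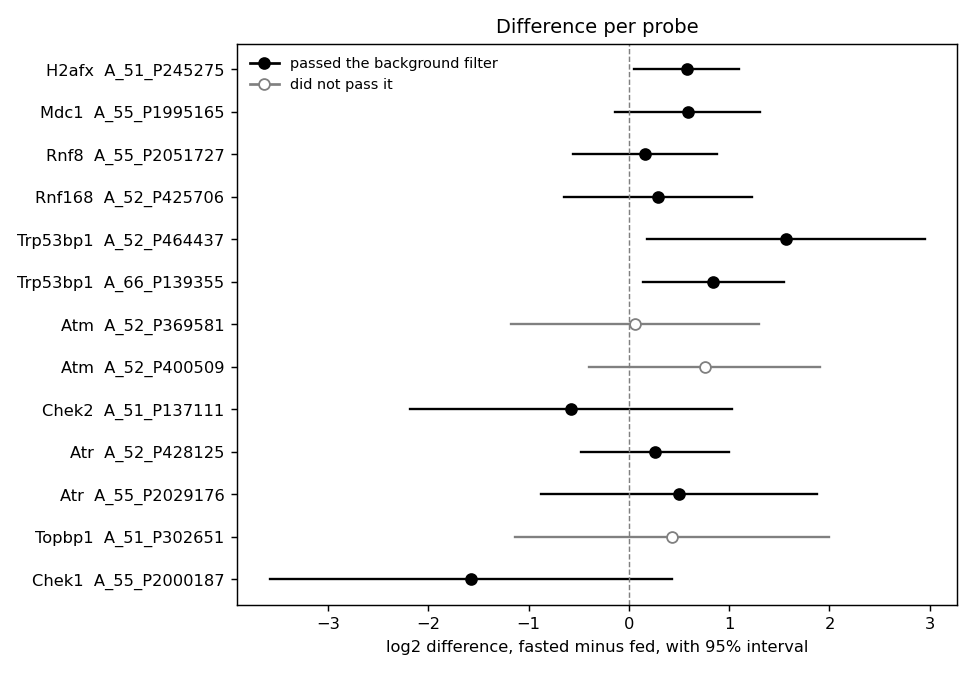
Log2 difference, fasted minus fed, with its 95% interval for each of the 13 probes, from limma with every probe as its own feature (filled, probes past the background filter; open and grey, probes that did not pass it, from the fit with no filter). The intervals of H2afx and of both Trp53bp1 probes lie above 0 before adjustment, and that of Chek1 is the widest. The dimmer Trp53bp1 probe, A_52_P464437, was well above background on only 1 fed array.

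**Figure D4:**
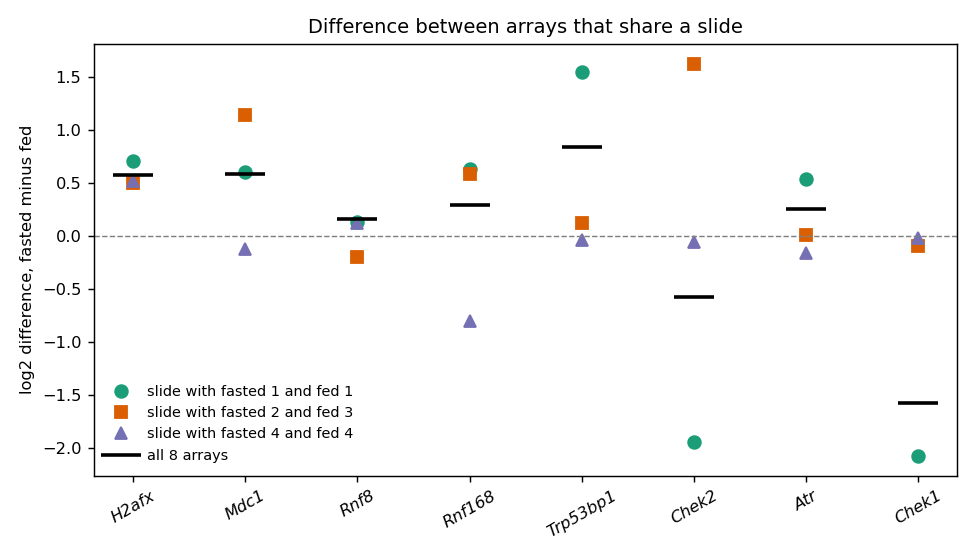
Log2 difference, fasted minus fed, between the arrays of each of the 3 shared slides (coloured symbols) and over all 8 arrays (black bars) for the 8 genes tested. The 3 H2afx symbols lie between 0.50 and 0.71, while those of Chek2 run from -1.94 to 1.63.

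The 10 genes ranked the arrays differently. Fasted replicate 1 was the highest of the 8 arrays for 4 of them (Atm, Atr, Mdc1 and H2afx), and fasted replicate 3 for 3 (Trp53bp1, Rnf8 and Rnf168). Fasted replicate 3 was also the lowest array for Chek1 and Topbp1. Of the 8 genes tested 6 had a higher mean in fasted crypts, where 44.5% of all genes had one, and the median log2 difference was 0.27 against -0.06 over all genes. Without fasted replicate 3 there were 4 such genes and the median was 0.01. By array pattern the nearest pair of the 8 was Atr and Rnf8 (mean absolute log2 difference 0.190 over the 8 arrays) and the farthest was Chek1 and Mdc1 (1.52).

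The partners of these genes were read from 4 lists. For break sensing and ATM activation, 8 of 11 tested genes had a higher fasted mean, with a median log2 difference of 0.14, and 0 passed. Rif1, the effector of 53BP1 at broken ends, had log2 signals of -2.03, -1.86, -1.05 and -2.25 on fasted arrays, against -3.12, -2.18, -2.504 and -2.56 on fed arrays. Its fed replicate 2 lay just inside the fasted range, and its log2 difference was 0.79 (SE 0.38). Rad50 and Mre11a, of the complex that recruits ATM, differed by 0.61 (SE 0.38) and 0.32 (SE 0.38), and Prkdc, the DNA-PK catalytic subunit, by 0.70 (SE 0.55). Without fasted replicate 3 these were 0.35 for Rad50, 0.03 for Mre11a and 0.41 for Prkdc, and the list's median was 0.07. Nbn, the third gene of that complex, did not pass the background filter. Prkdc was well above background on only 3 fasted arrays and 1 fed array.

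For replication stress and ATR activation 8 of 13 tested genes had a higher fasted mean (median 0.21), and 0 passed. Rfc4, a subunit of the clamp loaders, was at 1.08, 0.63, 1.08 and 0.82 on fasted arrays, against 0.55, 0.58, 0.43 and 0.26 on fed arrays. All fasted arrays lay above all fed arrays, and the log2 difference was 0.45 (SE 0.21, limma adjusted p = 0.788). Atrip, the obligate partner of ATR, differed by 0.41 (SE 0.23), Rpa1, which coats single-stranded DNA, by 0.43 (SE 0.26), and Rad9a, of the 9-1-1 clamp, by -0.44 (SE 0.23). Etaa1, Rad17, Hus1 and Clspn did not pass the background filter. Without fasted replicate 3 the median of this list was 0.06.

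For chromatin ubiquitination and BRCA1 recruitment 8 of 13 tested genes had a higher fasted mean (median 0.10), and 0 passed. Herc2, which supports RNF8, differed by -0.59 (SE 0.30), Usp3, which removes ubiquitin from histones, by 0.38 (SE 0.22), L3mbtl2, a chromatin reader ubiquitinated by RNF8, by -0.55 (SE 0.32), and Abraxas1, of the BRCA1-A complex, by 0.93 (SE 0.61). Abraxas1 owed most of this to fed replicate 1, at -4.95 against -2.37 to -2.02 on the other fed arrays. Herc2 was at -0.28, Usp3 at 0.24 and the list's median at 0.05 without fasted replicate 3. Brca1 and Uimc1 were among 4 genes of the list that did not pass the background filter.

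Among checkpoint effectors downstream of CHK1 and CHK2, 6 of 15 tested genes had a higher fasted mean and 9 a lower one (median -0.12), and 0 passed. Cdkn1a, the p21 inhibitor induced by p53, was at 4.83, 4.63, 5.02 and 4.70 on fasted arrays, against 5.45, 5.30, 5.27 and 4.84 on fed arrays. Fed replicate 4 lay inside the fasted range and the other 3 fed arrays lay above it, with a log2 difference of -0.42 (SE 0.18, limma unadjusted p = 0.0475, adjusted p = 0.788). Dbf4, the activator of the replication kinase CDC7, differed by -1.26 (SE 0.68), Cdk1, the mitotic kinase, by -0.62 (SE 0.54), and Cdc25a, the phosphatase that CHK1 marks for destruction, by 0.29 (SE 0.20). Dbf4 was well above background on only 1 fasted and 3 fed arrays. Cdk1 resembled Chek1 in that fasted replicate 3, at -3.69, was lowest, while the other 7 arrays ran from -1.32 to -0.78. Without that array the Cdk1 difference was -0.0020, and the median of the list was -0.29. The list's median turned to 0.022 without fasted replicate 2, 0.024 without fed replicate 2 and 0.0020 without fasted replicate 4.

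**Figure D5:**
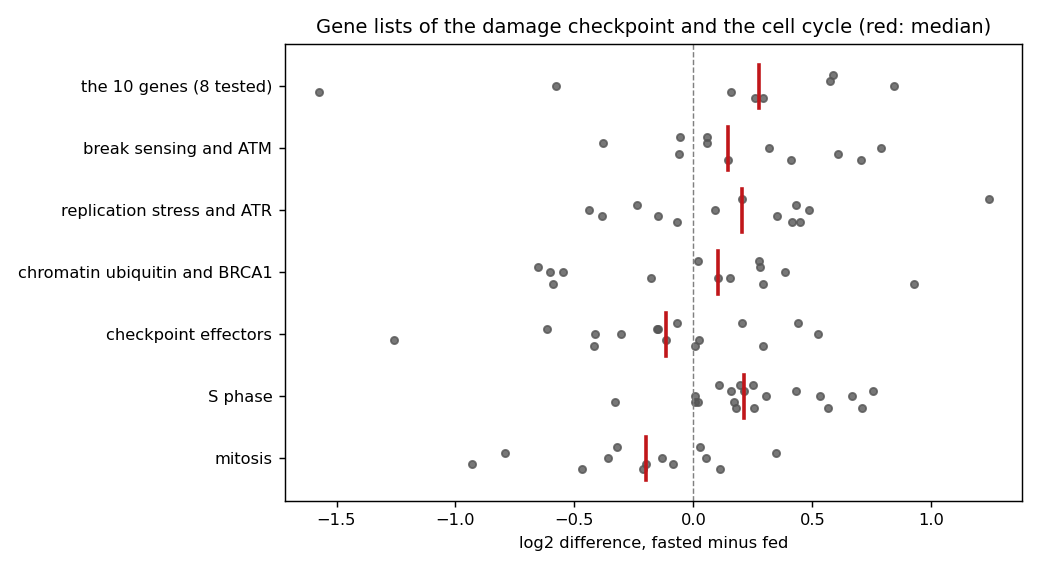
Log2 difference, fasted minus fed, of each tested gene (grey points, spread vertically for visibility) in the 8 tested damage sensing and checkpoint kinase genes, 4 lists of their partners and 2 lists of the cell cycle, with medians in red. The medians run from -0.20 for mitosis to 0.27 for the 8 genes, and single genes spread on both sides of 0 in every list.

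Genes of the cell cycle phases in which CHK1 and ATR act were read beside them. Of 19 tested S phase genes 18 had a higher fasted mean (median 0.21, with 0 past the threshold), including Prim1, a primase subunit, at a log2 difference of 0.71 (SE 0.35), Rrm2, of ribonucleotide reductase, at 0.67 (SE 0.34), and Mcm6 and Mcm2, of the replicative helicase, at 0.53 (SE 0.27) and 0.43 (SE 0.26). Mcm6 was at 0.27 and Mcm2 at 0.23 without fasted replicate 3. Of 13 tested mitosis genes 9 had a lower fasted mean (median -0.20, with 0 past the threshold), with Aurka, a spindle kinase, at -0.47 (SE 0.38), Nusap1 at -0.93 (SE 0.80), Prc1 at -0.36 (SE 0.31) and Cdc20 at -0.32 (SE 0.32). Nusap1 was at -5.13 on fasted replicate 3, and without that array its difference was -0.10. The mitosis median was -0.10 without fasted replicate 3 and -0.08 without fasted replicate 2. It was -0.0028 with slide as a fixed block and -0.11 with slide as a random block beside sex. Whether the makeup of cycling cells had a part in the values of the 10 genes was not tested.

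Markers of other cell types were read beside these genes, and 0 of them passed the test. All 24 tested enterocyte markers had a higher fasted mean (median log2 difference 1.06, with 0 past the threshold), and their summed linear signal, in multiples of the array's 75th percentile, ran from 168 to 270 on fasted and from 103 to 144 on fed arrays. Slc7a9, Enpep, Mep1b and Alpi differed by 1.17, 1.92, 1.73 and 0.64. All 8 tested Paneth markers had a lower fasted mean (median -0.46, against -0.13 with quantile normalization and -0.11 in the authors' matrix), with sums of 394 to 498 on fasted and 509.6 to 727 on fed arrays, Pla2g2a at -0.80, Itln1 at -0.34, Defa3 at -0.49 and Lyz1 at -0.28. Crypt stem markers summed to 176 to 201 on fasted and 207 to 302 on fed arrays, with 6 of 13 tested higher. Ephb3 alone made up 80.0% to 87.6% of the fasted and 80.9% to 86.8% of the fed sums, and without it the sums overlapped, at 24.4 to 38.2 on fasted and 27.3 to 57.8 on fed arrays. The median over the 13 was -0.05, with Olfm4 at -1.11, Cdca7 at 0.63 and Ephb3 at -0.32.

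Goblet markers had 2 of 8 tested genes higher (median -0.17, which turned to 0.09 with quantile normalization and to 0.11 in the authors' matrix), with sums of 285 to 328 on fasted and 303 to 360 on fed arrays, Zg16 at 1.096, Spink4 at -0.36, Agr2 at -0.30 and Muc2 at -0.20. Zg16 had a log2 signal of 1.95 on fed replicate 1, against 3.95 to 4.64 on the other fed arrays. Enteroendocrine and tuft markers had 8 of 10 higher (median 0.23), with sums of 18.5 to 40.3 on fasted and 18.9 to 51.9 on fed arrays, Sct at -0.40, Chga at 0.36 and Neurod1 at -0.91. That median ran from -0.059 with slide as a fixed block to 0.62 without fed replicate 1. It also turned to -0.048 with slide as a random block, -0.038 without fasted replicate 1, -0.016 without fed replicate 2 and -0.0003 without fasted replicate 3. Neurod1 was well above background on only 2 fasted and 3 fed arrays. Without fasted replicate 3 Chga was at 0.19 and Neurod1 at -0.36. Stromal markers had 5 of 10 higher, with sums of 26.5 to 57.0 on fasted and 20.4 to 97.99 on fed arrays, Pdgfrb at 1.77 and Col1a2 at -0.72. Pdgfrb was well above background on 4 fasted and only 2 fed arrays. Pdgfra was well above background on the 4 fasted arrays and on 0 fed arrays, so it passed the filter through the fasted arrays alone and no fold is given. Its groups overlapped, with a log2 signal of -3.50 on fasted replicate 4 and -3.48 on fed replicate 1 (limma adjusted p = 0.788). Leukocyte markers had 2 of 6 higher, with sums of 112 to 205 on fasted and 181 to 260 on fed arrays, of which Itgam made up 83.9% to 90.3% on every array. Itgam was at -0.38, Cd68 at -0.29 and Csf1r at -0.33, the last turning to 0.0085 without fasted replicate 3. The part of these cell types in the values of the 10 genes was not tested. By single gene 10 of 24 enterocyte, 2 of 8 Paneth, 2 of 13 stem and 1 of 10 stromal markers (Pdgfrb) were without overlap between feeding states. Of the goblet, enteroendocrine and tuft, and leukocyte markers 0 were. Beside them stood 1 of the 8 tested damage sensing and checkpoint kinase genes and 4.93% of all genes.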

How the data were processed

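Cy5-labelled cDNA was hybridised to Agilent 4x44K arrays, per the labels' protocols. Per the file headers, each scanner file that the authors deposited gives intensity values per spot, as processed signal made by version 11.5.1.1 of Agilent Feature Extraction. The authors' deposited matrix holds log2 values whose ranks follow the processed signal on every array (Spearman correlation of at least 0.999), with column medians of 7.73 to 8.33. Its scaling and centring stay unknown.

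Control spots and outlier-flagged spots (131 to 253 per array) were left out, spots of a probe were averaged on the log2 scale, and each array's 75th percentile was subtracted. Probes entered if flagged above background on 4 or more of the 8 arrays, the brightest standing for a gene. The 10 genes were matched by the name in the files. Other names came through RefSeq accessions (27655 of 39429 probes; assembly GRCm38.p6, names only). No probe was saturated, and 0 of 28 array pairs were identical. Probe positions and sequences are those of the files, and no mm9 gene annotation was used here, so exon and UTR are not stated.

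Genes were tested with limma 3.58.1 in R 4.3.3 (lmFit, eBayes with a trend), with labelled sex as a term and a Benjamini-Hochberg threshold of 0.05. The fit was tested on simulated data. The genes and lists were chosen with earlier results of these data known. Named from each list are the 4 genes with the smallest p (3 for cell type markers, plus Lyz1, Olfm4, Lgr5, Alpi and Muc2), and the 3 genes nearest in array pattern to the gene with the smallest p. Alternatives were other scalings, background correction, the authors' matrix, filters, probe rules, blocks, variance models, array weights, an adjusted p under 0.1, and each array left out in turn.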

Additional observations from a re-analysis of the deposited data

How the results depend on the processing

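Over 24 alternatives 0 genes passed in limma's test, the smallest adjusted p of any gene being 0.0741 with each array's share of probes above background in place of sex, where Chek1 was at -2.12 with an adjusted p of 0.0834. That covariate and the fit without fasted replicate 3 and fed replicate 4 were chosen after seeing the data. H2afx ranged from 0.450 to 0.700, Trp53bp1 from 0.478 to 1.20, Mdc1 from 0.339 to 0.790, Atr from 0.060 to 0.452, Chek1 from -2.32 to -0.563 and Chek2 from -1.12 to -0.093, each with 1 direction throughout. Chek1 and Chek2 were each read in 23 of the alternatives. Leaving out the sex term or the variance trend, or a threshold of 0.1, could not change these differences in this balanced design. Rnf8 turned to -0.042 with array weights, -0.142 without fasted replicate 3 and -0.215 without fasted replicate 3 and fed replicate 4. Rnf168 turned to -0.200 with array weights and -0.033 without fasted replicate 3. With 1 array left out Rnf8 ran up to 0.347 (without fasted replicate 2) and Rnf168 up to 0.649 (without fasted replicate 4). The median of the ATR partner list was -0.014 with array weights. The median of the genes tested ranged from 0.013 (without fasted replicate 3) to 0.498 (without fasted replicate 4) when 1 array was left out, and the number higher in fasted crypts from 4 to 6. From 0 (median scaling, and without fasted replicate 1) to 3 genes (without fasted replicate 4, and with the covariate) had an unadjusted p under 0.05. Of all genes tested 4.6% had one with median scaling, 2.45% without fasted replicate 1, 10.6% without fasted replicate 4 and 28.5% with the covariate. Same-numbered arrays deviated from their group means with correlations across genes of 0.372, -0.469, -0.446 and 0.606, with no shared sign. These correlations cannot settle whether same-numbered arrays were paired. The 3 pairs on a shared slide, of which 2 also share a number, had 0.372, 0.536 and 0.606. Pairs on different slides ran from -0.510 (fasted replicate 3 with fed replicate 4) to 0.502 (fasted replicate 2 with fed replicate 4). Fasted replicate 3 with fed replicate 2 had 0.458, so high values were not confined to a shared slide. With slide as a fixed block H2afx was at 0.58, Trp53bp1 at 0.54 and Chek1 at -0.73, and 0 genes passed, though that fit had only 2 residual degrees of freedom. With slide as a random block beside sex, the correlation within a slide was 0.70. H2afx was then at 0.57 (limma adjusted p = 0.203), Trp53bp1 at 0.80 and Chek1 at -1.26. In that fit 2 of the genes tested had an unadjusted p under 0.05, where 15.7% of all genes did, and 0 genes passed. Each replicate number holds a fasted and a fed array, so the number as a block cannot change a log2 difference. With that block 2 of the genes tested had an unadjusted p under 0.05, where 5.7% of all genes did, and 0 genes passed. With normexp, which compresses dim signals, Chek1 was at -0.77 and Trp53bp1 at 0.48. Signal over background limits Atm, Topbp1, Chek2 and the dimmer Trp53bp1 probe. It also limits named partners and markers, among them Dbf4, Prkdc, Neurod1, Pdgfra and Pdgfrb.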
